A study of Mus musculus with 2 samples.

Results

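The genes described here are those of bone morphogenetic protein (BMP) signalling in mouse calvarial osteoblasts: the ligands Bmp2 and Bmp4, the antagonist Grem1, the receptors Bmpr1a and Bmpr2, the inhibitory Smad gene Smad6 and the target genes Id1, Id2, Id3 and Id4. They were chosen by name, and every probe set that the platform annotation gives to exactly 1 of these 10 genes was used, which came to 21 probe sets out of 34945 with 1 gene and to 10 genes out of 18194. No probe set of several genes named any of them. Expression was measured once with 2 µM PP1, an inhibitor of c-Src and related tyrosine kinases, for 24 h, and once with the vehicle DMSO for 24 h. In both cases primary osteoblasts from the calvarial bones (skull vault) of CD1 mice aged 7 days had first been kept for 24 h in medium with bovine serum albumin in place of serum. Each group is 1 Affymetrix array, so there is no replicate, no test and no p-value, and the number of arrays limits the precision.

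BMPs are secreted ligands of the transforming growth factor beta (TGF-beta) superfamily, named for their power to induce bone. They bind paired type I and type II serine/threonine kinase receptors, whose signal is carried to the nucleus by the receptor Smads together with Smad4, while secreted antagonists trap the ligand and inhibitory Smads stop the signal inside the cell. The Id genes are among the best-known direct targets. Id proteins are helix-loop-helix proteins without a DNA-binding region, which tie up the E proteins and other basic helix-loop-helix (bHLH) factors that drive differentiation.

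Relative to the bulk of genes and by brightest probe sets, Id4 was 2.07-fold higher with PP1 than with DMSO. Of the other 9 genes, 8 lay within 1.5-fold, and Bmp2, under the floor with DMSO, has only a lower bound of 1.33-fold higher. Among those 8, Bmpr1a and Id2 each had another probe set beyond 1.5-fold, at 1.92-fold and 1.55-fold higher. No gene of the 10 was at least 2-fold lower. Bmp4, Bmpr2, Smad6 and the other Id genes kept close to the bulk by brightest probe sets. Their log2 ratios (PP1 minus DMSO) ran from -0.34 for Bmpr2 to 0.14 for Id1. All 10 genes counted as measured, meaning that their brightest probe set exceeded the floor of 31.7 signal units on at least 1 array, but Bmp2 did so only on the PP1 array. Over 12111 measured genes, 2.97% were at least 2-fold higher and 1.55% at least 2-fold lower, and 1 higher gene and 0 lower genes out of 10 are too few to set apart from those shares. The median log2 ratio was -0.07 over the 10 genes and 0.01 over all measured genes. Between probe sets of the same gene the log2 ratio had an SD of 0.41. It was taken over 4745 genes for which more than 1 probe set exceeded the floor with PP1 and with DMSO. This SD measures only disagreement between probe sets on the same arrays. Variation between cultures or replicate arrays is not in it and could not be measured. The log2 ratios of 8 of the 10 genes were smaller than this SD, that of Bmp2 was about equal to it (a lower bound of 0.41), and that of Id4 was larger.

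All these directions depend on the scale. The PP1 array was dimmer as deposited, and its signals are given below after multiplication by 1.68, which equalizes the 2% trimmed means of the arrays. Without that step the median log2 ratio of all measured genes was -0.70. As deposited, Id4 was still higher with PP1, by 1.23-fold, whereas Grem1 (-0.47) and Id1 (-0.61), which lay above 0 after scaling, lay below 0. Bmpr2 and Smad6 were then at least 2-fold lower, at 2.13-fold and 2.04-fold. Scaled instead to 18 bacterial hybridization control probe sets, whose median log2 ratio as deposited was 0.09, Id4 was 1.16-fold higher and Bmp4, Bmpr2, Id2 and Smad6 were at least 2-fold lower, against a median of -0.79 over all measured genes. These scalings differ by 1 factor on the PP1 array and so leave the order of the genes the same, apart from those at the floor.

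**Figure D1:**
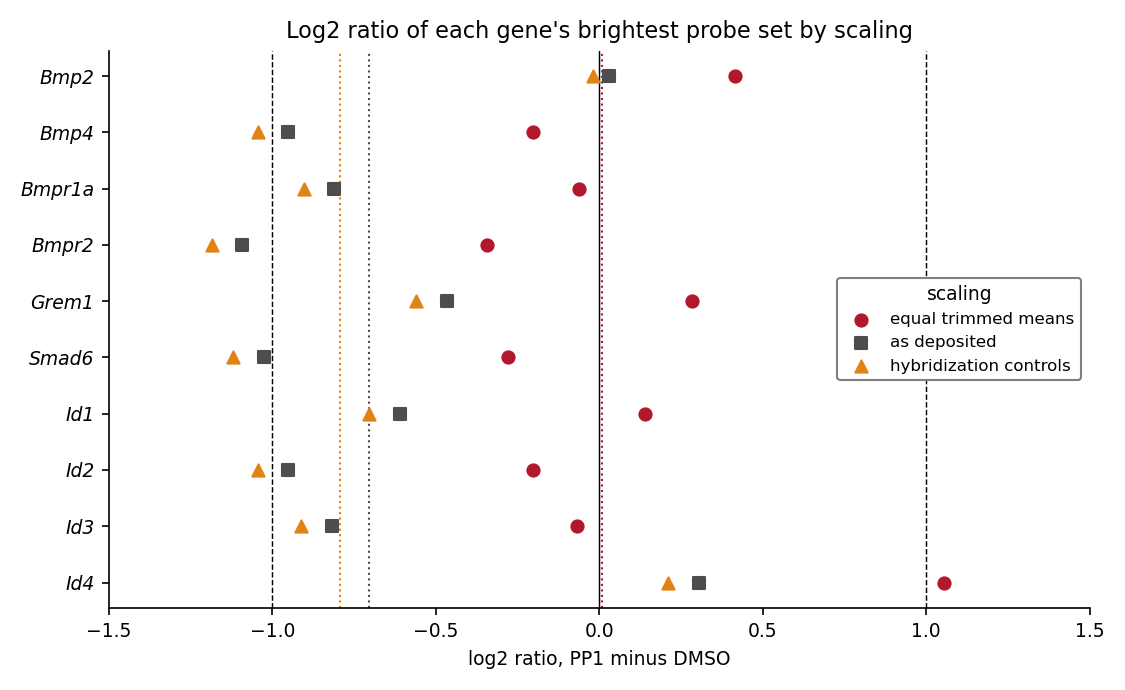
Log2 ratio (PP1 minus DMSO, horizontal axis) of the brightest probe set of each of the 10 genes under 3 scalings, with dotted lines at the median of all measured genes under each (0.01, -0.70 and -0.79) and dashed lines at 2-fold. Id4 lies to the right of 0 under all 3, at 1.05, 0.30 and 0.21.

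The labelled cell type was checked against its markers. Of 9 osteoblast markers, 7 had a probe set named here, and 5 of these were above the floor on both arrays, summing to 21466 with PP1 and 15814 with DMSO over the 7. Nearly all of these sums came from Col1a2 (11166 with PP1, 7809 with DMSO) and Col1a1 (9931 with PP1, 7558 with DMSO). The log2 ratios of the 5 were 0.52 (Col1a2), 0.39 (Col1a1), 0.37 (Alpl), -0.43 (Sp7) and -2.08 (Ibsp). Runx2 and Bglap had no probe set named here, and the late genes Phex and Dmp1 were under the floor on both arrays. All 10 named macrophage markers were above the floor on both arrays, with a summed signal of 10809 with PP1 against 8628 with DMSO, of which Lyz2 alone gave 6297 with PP1 and 4892 with DMSO. They went both ways, 6 above 0 and 4 below, from 1.11 for Mrc1 to -0.76 for C1qb (median 0.12). The 4 named adipocyte markers, all above the floor and all above 0 in log2 ratio (median 0.60), summed to 7090 with PP1 and 3738 with DMSO. The 7 smooth muscle and pericyte markers (Myh11 under the floor) summed to 8296 with PP1 and 10816 with DMSO. Most of this came from Acta2 (5788 with PP1, 6994 with DMSO) and Tagln (2114 with PP1, 3053 with DMSO). Of 6 measured, 5 lay below 0 (median -0.40), with Cspg4 3.34-fold lower by its brightest probe set and Cnn1 at least 2.58-fold lower. The other, Des, lay above 0. The 6 cartilage markers (Matn1 under the floor) summed to 4204 with PP1 and 4864 with DMSO, with 4 of 5 measured below 0 (median -0.32). The 7 endothelial markers, of which Pecam1, Tie1 and Emcn were under the floor on both arrays, summed to 857 with PP1 and 870 with DMSO, with 2 of 4 measured above 0 (median 0.19). The 5 skeletal muscle markers (Ckm under the floor) summed to 691 with PP1 and 641 with DMSO, mostly Acta1 (426 with PP1, 521 with DMSO), but 3 of the 4 measured lay above 0 (median 1.00), with Des 2.69-fold and Myog at least 2.58-fold higher from dim signals. The 5 osteoclast markers (Calcr under the floor) summed to 1365 with PP1 and 1484 with DMSO, with 3 of 4 measured below 0 (median -0.09). A sign of RNA quality, the 3' over 5' ratio of control probe sets, was 0.19 (Gapdh), 1.46 (Pcx) and 0.69 (Actb) on the log2 scale with PP1, against 0.70, 1.80 and 0.55 with DMSO. The part of other cell types and of RNA quality in the values below was not tested, and in such bulk RNA fewer cells of a type and less RNA per cell cannot be told apart.

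Of the Id genes, Id4 had the largest log2 ratio. It has been linked in mouse cells to osteoblast differentiation. Its 3 probe sets had scaled signals of 853, 263 and 118 with PP1, against 411, 133 and 59.8 with DMSO. Each was higher on the PP1 array, with log2 ratios of 1.05, 0.98 and 0.99. These 3 probe sets were designed from the same database sequence and so are not independent, but their ratios lay within 0.07 of each other. For comparison, 1820 genes had at least 3 probe sets above the floor with PP1 and with DMSO. Their median distance between the lowest and the highest log2 ratio was 0.70. In 0.934% of them the distance was no larger than that of Id4. They were counted whatever the number or source sequence of their probe sets, so the share is not a like-for-like measure for Id4. The log2 ratio of Id4 lay at percentile 97.5 of all measured genes. Its brightest probe set belongs to the brightest 25% of measured genes, in which 47 of 3028 genes (1.55%) passed 2-fold upward with PP1 and the SD of the log2 ratio was 0.41. The call rests on the brightest probe set: by the median of its probe sets Id4 was 1.98-fold higher, just under 2-fold.

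The other Id genes lay closer to the bulk by their brightest probe sets. Id1, the Id gene with the best-described BMP response element, had a signal of 403 with PP1 and 366 with DMSO, a log2 ratio of 0.14 from 1 probe set. Id3, likewise a direct BMP target, had a signal of 1582 with PP1 and 1659 with DMSO, a log2 ratio of -0.07 from 1 probe set. Both lay well inside the middle 50% of measured genes, which spanned log2 ratios from -0.25 to 0.30. Id2 was less settled, because its probe sets went different ways. The brighter gave 1125 with PP1 and 1296 with DMSO (-0.20), the second 408 with PP1 and 263 with DMSO (0.63), and the remaining probe set was under the floor on both arrays, at 26.5 with PP1 and 28.8 with DMSO. The distance of 0.84 between the first 2 exceeded the size of either ratio, and the direction for Id2 therefore depends on the probe set. Id4 exceeded the other Id genes by 0.91 (over Id1) to 1.26 (over Id2) on the log2 scale, by their brightest probe sets. No test of that difference is possible with 1 array per group.

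**Figure D2:**
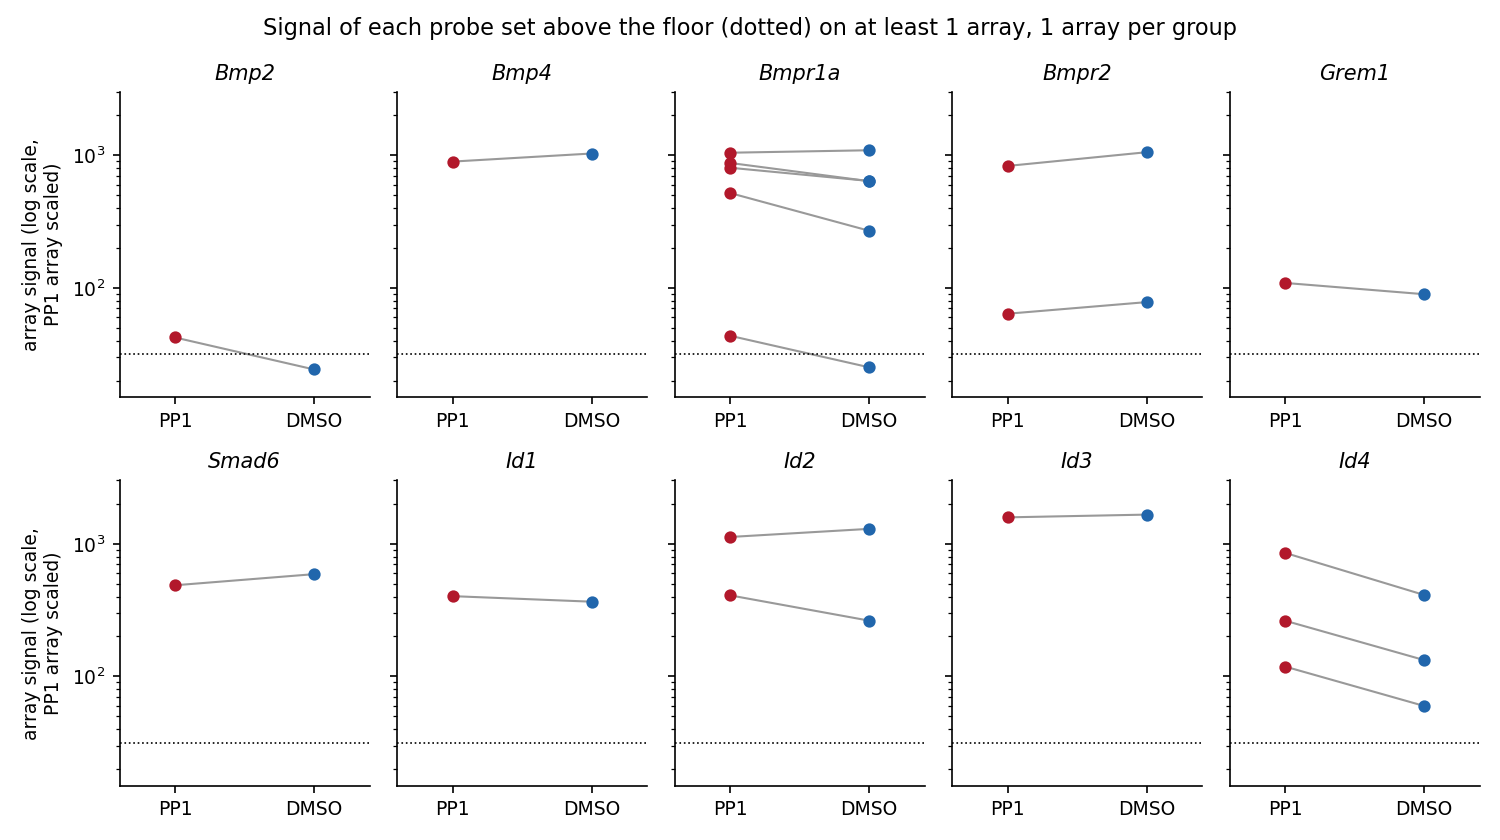
Array signal (vertical log axis, PP1 array scaled) of each probe set above the floor of 31.7 (dotted line) on at least 1 array, with lines joining the PP1 value (left) to the DMSO value (right) of the same probe set. All 3 lines of Id4 run downward to DMSO, those of Id1 and Id3 are nearly level, and the 2 lines of Id2 run in opposite directions.

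The 250 bases before the annotated start of Id4, Id2 and Id3 are given because these genes of 1 family and 1 pathway had different ratios by their brightest probe sets. They were taken from RefSeq (build GRCm38.p6), which held such a stretch for 8 of the 10 genes but not for Bmp2 and Id1. Each is written 5' to 3' on the strand of its gene, and bases further upstream were not searched. Capitals mark GGCGCC, the GC-rich element bound by BMP-specific Smads, and the short Smad box GTCT, both searched on either strand (GTCT also appears as AGAC). The 2 motifs share no letters in these stretches. The Id4 stretch is chr13:48260866-48261115 on the plus strand, that of Id2 is chr12:25096093-25096342 on the minus strand, and that of Id3 is chr4:136143572-136143821 on the plus strand.
Id4: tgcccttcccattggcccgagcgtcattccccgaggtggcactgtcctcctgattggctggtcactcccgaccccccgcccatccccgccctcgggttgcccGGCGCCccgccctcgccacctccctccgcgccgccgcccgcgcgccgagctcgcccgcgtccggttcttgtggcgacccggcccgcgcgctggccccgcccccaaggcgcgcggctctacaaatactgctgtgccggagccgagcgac
Id2: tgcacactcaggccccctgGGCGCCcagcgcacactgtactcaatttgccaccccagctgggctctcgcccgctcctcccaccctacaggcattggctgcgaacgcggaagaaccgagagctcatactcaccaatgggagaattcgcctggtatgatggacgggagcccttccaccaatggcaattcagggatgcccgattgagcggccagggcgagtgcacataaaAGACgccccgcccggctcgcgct
Id3: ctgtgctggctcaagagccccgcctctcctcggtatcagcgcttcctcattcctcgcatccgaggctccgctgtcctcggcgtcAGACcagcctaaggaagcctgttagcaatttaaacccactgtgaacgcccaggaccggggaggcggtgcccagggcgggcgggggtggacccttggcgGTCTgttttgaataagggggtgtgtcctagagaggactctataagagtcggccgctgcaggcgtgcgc
The Id4 stretch held GGCGCC once, at 148 to 143 bases before the start, and no GTCT. The Id2 stretch held GGCGCC at 231 to 226 bases and AGAC at 23 to 20 bases before the start, and the Id3 stretch held no GGCGCC but AGAC at 166 to 163 and GTCT at 68 to 65 bases. Over all 32851 such stretches in the table, 9.59% held GGCGCC and 82.9% held GTCT on either strand. GGCGCC was also found before Bmpr1a, Bmpr2 and Grem1, so that 5 of the 8 genes had it, and GTCT on either strand was likewise found before 5 of the 8. G and C made up 75.6% of the Id4 stretch and 62.8% of each of the other 2, against a median of 52.4% over all stretches. These letters are a description of the stretches and do not show that a factor binds there.

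The ligands gave no 2-fold difference. Bmp4, which with Bmp2 is one of the main osteogenic ligands, had a signal of 896 with PP1 and 1031 with DMSO, 1.15-fold lower, from 1 probe set. Bmp2 had a scaled signal of 42.3 with PP1 and 24.3 with DMSO. The DMSO value is under the floor, so that Bmp2 was at least 1.33-fold higher after scaling, and its signals as deposited were 25.2 with PP1 and 24.3 with DMSO, which is nearly level. In the dimmest 25% of measured genes, where Bmp2 lies, the SD of the log2 ratio was 0.51. Grem1, a secreted antagonist that binds Bmp2 and Bmp4, had a signal of 109 with PP1 and 89.6 with DMSO, 1.22-fold higher from 1 dim probe set, in a direction that turned without scaling as given above.

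Of the receptors, the type II receptor Bmpr2 was the lowest of the 10 genes. Its probe sets gave 831 and 63.9 with PP1 against 1055 and 78.1 with DMSO, log2 ratios of -0.34 and -0.29, and the remaining one was under the floor on both arrays (29.7 with PP1, 31.2 with DMSO). The 2 above the floor derive from different database sequences and lay within 0.05 of each other. The difference of 1.27-fold by the brighter of them is nevertheless smaller than the SD of 0.41 between probe sets of a gene, and percentile 18.3 of all measured genes is not an extreme place. Smad6, the BMP-induced inhibitory Smad, stood near it, with a signal of 487 with PP1 and 590 with DMSO, 1.21-fold lower from 1 probe set.

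The type I receptor Bmpr1a could not be given a direction. Its brightest probe set was nearly level, with a signal of 1045 with PP1 and 1091 with DMSO (-0.06). The next 3 were all higher on the PP1 array. They had signals of 875, 805 and 519 with PP1, against 638, 640 and 270 with DMSO, or log2 ratios of 0.46, 0.33 and 0.94. Another passed the floor only with PP1 (43.5, against 25.2 with DMSO), and the last, from another database sequence, was under it on both arrays. The first 5 were all designed from the same database sequence, and yet the distance between their lowest and highest ratio was 1.01. Such a distance is common on these arrays. Of the 1820 genes with at least 3 probe sets, of whatever source sequences, 24.9% had one at least as large. By the median of its probe sets Bmpr1a stood at 0.41 relative to the bulk, in place of -0.06.

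**Figure D3:**
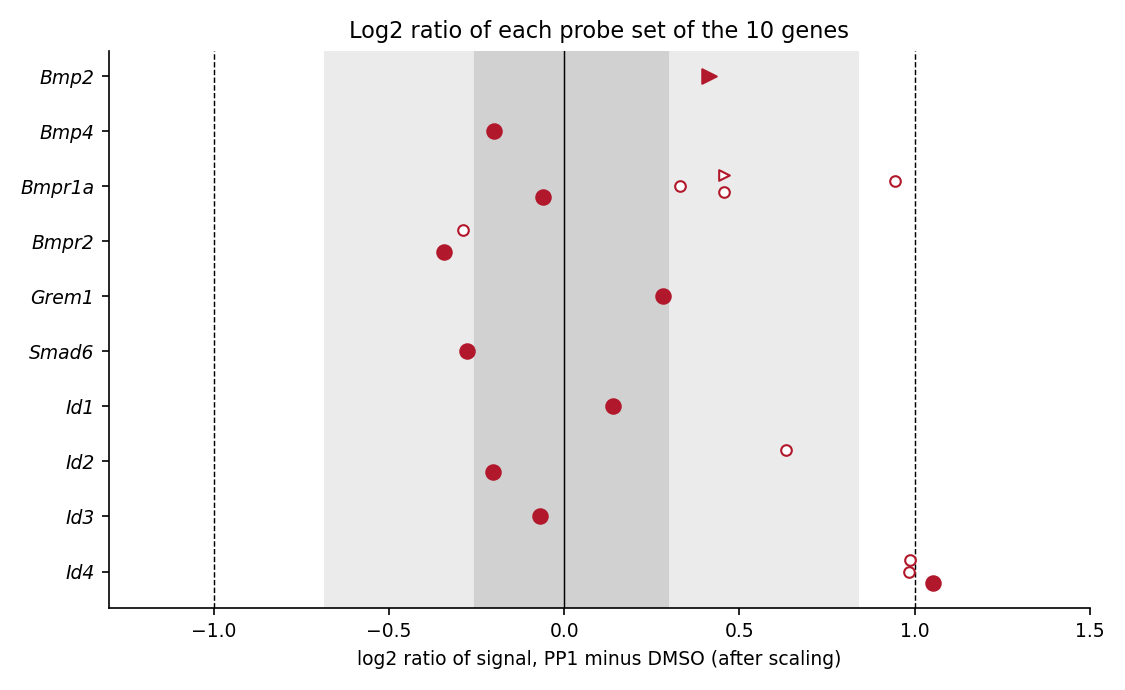
Log2 ratio (PP1 minus DMSO, after scaling, horizontal axis) of the 18 probe sets above the floor on at least 1 array, with filled symbols for the brightest probe set of a gene and triangles for lower bounds; dark and light grey bands hold the middle 50% and 90% of all measured genes and dashed lines mark 2-fold. The 3 probe sets of Id4 lie near 1, and those of Bmpr1a spread from -0.06 to 0.94.

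Of the 21 probe sets of the 10 genes, 18 were above the floor on at least 1 array and 3 on neither. Of the 18, 11 lay above 0 and 7 below, with a median log2 ratio of 0.31, against 0.05 over 21219 probe sets of this kind. Bmpr1a gave 5 of the 18 and Id4 gave 3, and the median over genes, each counted once, was -0.07. Only 4 genes had several probe sets above the floor, and those of Bmpr1a and Id2 lay on both sides of 0. As deposited, 6 of the 18 lay above 0.

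**Figure D4:**
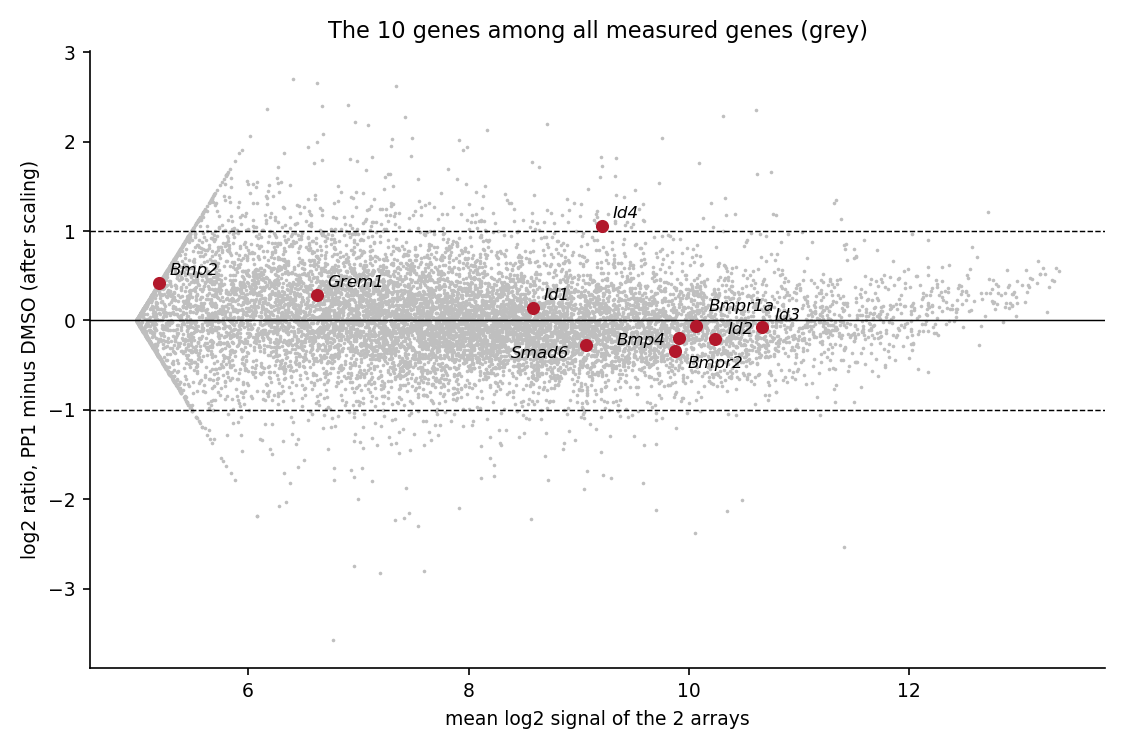
Log2 ratio (PP1 minus DMSO, after scaling, vertical axis) against the mean log2 signal of the 2 arrays for 12111 measured genes (grey) and the 10 genes (red, labelled), with dashed lines at 2-fold. Id4 lies above the upper line, Bmp2 on the left edge set by the floor, and the other genes within the cloud.

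The rest of the pathway was described with 7 groups of 77 genes in all, including the 10 genes, of which 57 were measured. Of these, 4 passed 2-fold upward with PP1 (Id4, Chrdl1, Rgma and Twist1) and 2 passed it downward (Skil and Hey1), 34 lay below 0, and the median log2 ratio was -0.07. Without the 10 genes the counts were 3 higher and 2 lower of 47, with a median of -0.10. Over all measured genes the shares were 2.97% higher and 1.55% lower, and 49.0% lay below 0. Directions in this and the next paragraphs are relative to the bulk of genes; as deposited the medians of all 7 groups lay below 0, from -1.03 to -0.36, with that of all measured genes at -0.70.

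Among ligands, 5 of the 11 named genes were measured and none differed 2-fold. Bmp5 stood at 0.47, Bmp6 at -0.28 and Gdf2, a ligand known chiefly for its action on endothelium, at -0.31, all of them dim. Bmp7, Gdf5 and 4 others were under the floor on both arrays. Among 11 receptors and co-receptors, 4 lay above 0 and 7 below (median -0.02). The co-receptor Rgma was 2.07-fold higher, from a dim signal of 96.6 with PP1 against 46.7 with DMSO by 1 probe set. Its relative Rgmb stood at 0.43, with probe sets from -0.12 to 0.85. The type I receptor Acvr1 (ALK2) stood at -0.74 by its brightest probe set, with a signal of 679 with PP1 and 1132 with DMSO, but another of its 3 probe sets gave 0.42. Bmpr1b, a further type I receptor, had 17.7 with PP1, under the floor, and 59.3 with DMSO, so that it was at least 1.87-fold lower.

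Of the antagonists, Chrdl1 (chordin-like 1), which binds BMPs as chordin does, was counted as 2-fold higher. Its signal was 189 with PP1 and 54.5 with DMSO, 3.47-fold higher, and its 3 probe sets ranged from 0.97 to 1.87. It was higher as deposited too, at 1.05. Of 12 measured antagonists and modulators, 6 lay above 0 and 6 below (median 0.14). Chordin itself (Chrd) stood at 0.54, Nbl1 at 0.53 and Sostdc1 at 0.51 or more (its DMSO signal was under the floor), while Twsg1, named after its values were seen, stood at 0.37 by its brightest probe set with 4 probe sets from -0.29 to 2.10. Fstl3, which binds activins and BMPs, stood at -0.75. Bmper, like Twsg1 named after its values were seen, stood at -0.51, with a signal of 773 with PP1 and 1100.5 with DMSO. Noggin (Nog) and sclerostin (Sost) were under the floor on both arrays.

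Inside the cell, the transducers Smad1, Smad4 and Smad5 stood at -0.12, -0.27 and -0.23, and the probe sets of each lay on both sides of 0. Of the 8 inhibitors, 5 lay below 0 (median -0.28). Skil, a Smad co-repressor that is itself induced by TGF-beta, was 4.65-fold lower, with 176 with PP1 against 816 with DMSO by 1 probe set. Smad7, the inhibitory Smad common to BMP and TGF-beta signalling, stood at -0.70 with its other probe set at -1.39. The co-repressor Ski stood at -0.68 with its other probe set at -0.28. The ubiquitin ligase Smurf2 stood at -0.29, with 3 probe sets that reached up to 0.02. Against these, the decoy receptor Bambi stood at 0.81, from 117 with PP1 and 66.6 with DMSO.

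Of 12 measured target genes, 8 lay below 0 (median -0.14), Id1 to Id4 included in the count. Besides Id4, only Hey1, a bHLH repressor that is also a Notch target, passed 2-fold: its signal was 55.4 with PP1 and 139 with DMSO, 2.51-fold lower by 1 probe set. Atoh8 stood at 0.60, Msx1 at -0.46 and Sp7, the osteoblast transcription factor osterix, at -0.43. Of the bHLH factors that Id proteins can bind or compete with, 4 of 6 measured lay above 0 (median 0.23). Twist1, a bHLH factor of the cranial mesenchyme that restrains osteoblast differentiation, was 2.91-fold higher, with 1450 with PP1 against 499 with DMSO by 1 probe set. Twist2 stood at 0.42, and Scx was at least 1.74-fold lower, being under the floor with PP1. The E protein genes Tcf3 and Tcf4 stood at 0.39 and 0.06 by their brightest probe sets. Tcf3 had another probe set at -0.36, and the 5 of Tcf4 ran from 0.06 to 1.09.

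**Figure D5:**
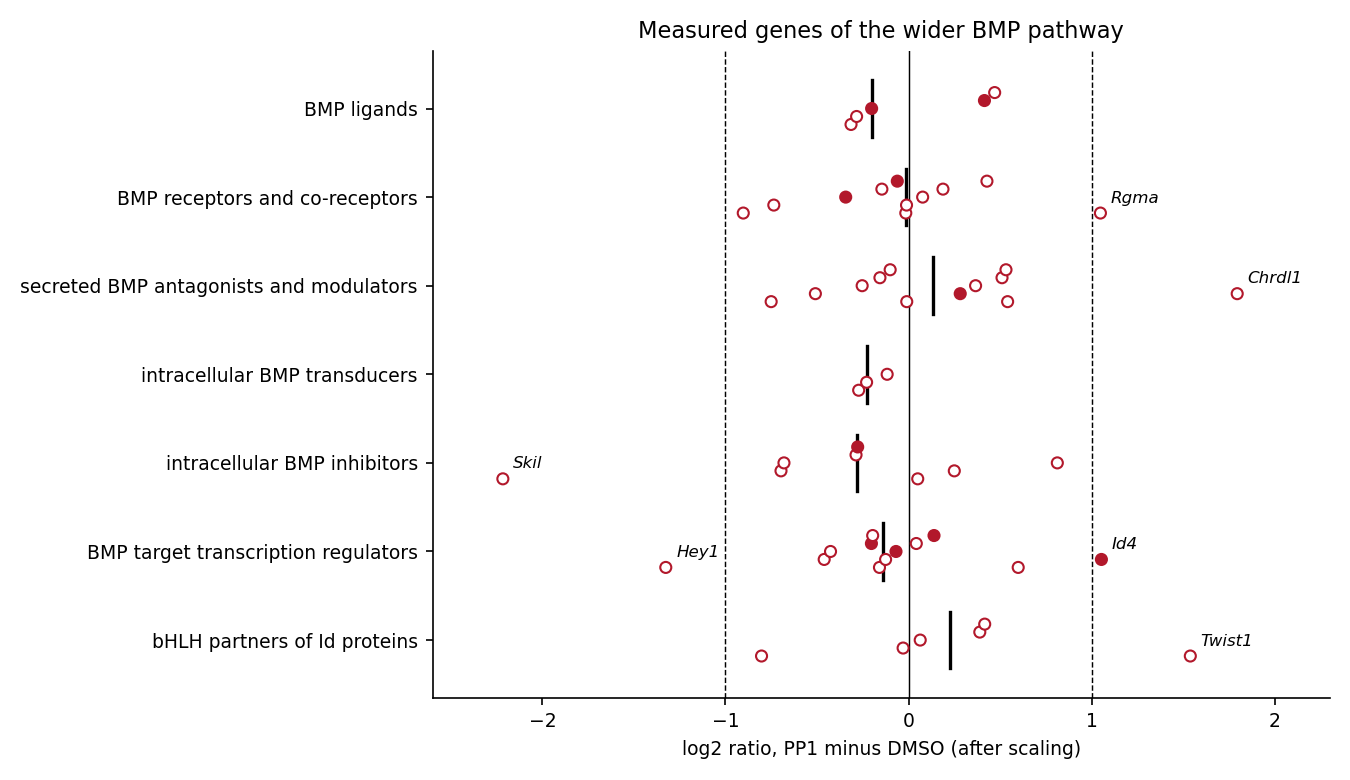
Log2 ratio (PP1 minus DMSO, after scaling, horizontal axis) of each measured gene of 7 groups of the BMP pathway, with filled symbols for the 10 genes, black bars for group medians, dashed lines at 2-fold and names for the genes beyond them. Chrdl1, Twist1, Id4 and Rgma lie to the right of the upper line, and Skil and Hey1 to the left of the lower one.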

How the data were processed

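The authors' deposited values are 1 linear array intensity (signal) per probe set and array, made with MAS5, per the submitters' processing notes; no MAS5 version or target scaling is given in the sources used here. Per the labels' protocols, RNA was extracted with Trizol and labelled as biotinylated cRNA. The table held 45101 probe sets, of which 64 were controls. Gene names came from the platform annotation, updated by gene identifier from a RefSeq table (GRCm38.p6): of the probe sets, 34945 had 1 gene (34741 matched), 932 several and 9160 none here. The PP1 array was multiplied by 1.68 to equal trimmed means (2% off each end; 94.1 with PP1 and 158.1 with DMSO), signals below 31.7, the median of all scaled signals, were raised to that floor before taking log2. A gene is represented by its brightest probe set (mean of both arrays on the log2 scale, before the floor). Folds are PP1 over DMSO, and a fold of 2 was counted.

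The 10 genes and the other lists were chosen with earlier results of these data known. The text names all 10 genes and each gene of the 7 groups at 2-fold or more. It also names up to 4 others per group by size of the log2 ratio. Twsg1 and Bmper were named besides these, and they and the genes named as under the floor were chosen after their values were seen. Steps were tested on simulated data with changes larger than 2-fold in genes well above the floor, which does not cover 2-fold changes or dim genes. Alternatives were other scalings, floors, probe set choices and folds. Python 3.11.15, pandas 2.3.3 and statsmodels 0.14.6 were used.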

Additional observations from a re-analysis of the deposited data

How the results depend on the processing

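The log2 ratio of Id4 relative to the bulk of genes ran from 0.94 to 1.13 over 8 alternatives. These were 4 scalings, 2 floors, a median over each gene's probe sets, and leaving out probe sets whose IDs mark shared or alternative transcripts. Shifts of the median of all genes (-0.71 as deposited, -0.80 with the hybridization controls) were taken off these ratios, but not off the counts. Beyond that shift, only loess and the median over probe sets could change the ratio of Id4. The narrow range therefore largely follows from the method. After that subtraction, Bmp4, Bmpr2, Id3 and Smad6 lay below 0 and Bmp2, Grem1 and Id1 above 0 in every alternative that gave them a value. Before it, Grem1 stood at -0.47 as deposited and -0.56 with the hybridization controls, and Id1 at -0.61 and -0.70. Bmp2 stood at -0.02 with those controls. The count of genes at least 2-fold higher was 0 in place of 1 as deposited, with the hybridization controls, with the median over probe sets and at a 3-fold threshold. The count at least 2-fold lower was 2 as deposited and 4 with the hybridization controls, in place of 0, which follows from the shift. Bmpr1a moved to 0.41 relative to the bulk with the median over probe sets. In the 7 groups, the counts higher and lower were 1 and 18 as deposited, 0 and 23 with the hybridization controls, 8 and 6 with no floor, and 2 and 1 with a floor at the 75th percentile, in place of 4 and 2. With that higher floor Bmp2 and Grem1 had no value and Chrdl1 was left at 0.23, and with loess Rgma was at 0.89. These values and those of single genes below had no shift taken off. Without shared probe sets Twsg1 stood at 2.10, and with no floor Bmp2 was 1.74-fold higher and Sostdc1 stood at 2.12. Grem1, Id1 and Id2 had no value without shared probe sets. No paired analysis was possible because each group is 1 array.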
